A study of Mus musculus with 4 samples.

Results

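Hhip-Ednrb cells, a myofibroblast-like class, were studied in 3 mouse lungs at E17.5 (embryonic day, counted from mating) as the mesenchymal cells that carried a fixed set of marker transcripts. A cell was a member if at least 4 of the 7 genes Hhip, Ednrb, Fgf18, Wif1, Agt, Tgfbi and Igf1 had a UMI (unique molecular identifier, 1 per captured transcript), fewer than 4 of the 6 matrix fibroblast genes Wnt2, Tcf21, Figf, Col13a1, Meox2 and Adh1 did, and Ptprc, Pecam1 and Epcam, which mark leukocytes, endothelium and epithelium, were at 0. The rule found 394 members among 7479 E17.5 cells, of 10564 cells in the series. Lung 1 held 157 members of 2682 cells, or 5.85% (95% exact binomial interval 5.00 to 6.81%). Lung 2 held 109 of 2140, or 5.09% (4.20 to 6.11%), and lung 3 held 128 of 2657, or 4.82% (4.03 to 5.70%). The mean was 5.25% ± 0.537 of all cells (SD, n = 3 lungs), and 24.9% ± 0.938 of the mesenchyme. Since the rule sets these shares, they are a description, and the intervals cover counting error only.

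The lungs were wild-type C57BL/6 tissue that was digested, freed of red cells and sorted for live cells before single-cell RNA sequencing. The series also holds 1 sample of 3085 cells from 1 lung at E16.5, sorted by FACS from an αSMA-GFP; Tbx4-Cre; Rosa26-tdTomato mouse for the reporter of alpha smooth muscle actin and the Tbx4 lineage label. Tbx4-Cre marks descendants of Tbx4-expressing lung mesenchyme. Nothing in the labels says if the wild-type lungs came from 1 litter or several. The limma p-values concern how class differences vary over these lungs, a spread that may be partly technical. That spread was estimated for each gene with help from the other genes. The 3 libraries held 20347458 to 23996253 UMIs, of which 1078884, 890525 and 817311 fell in members of lungs 1, 2 and 3. The Hhip-Ednrb cells had a median of 6390, 7899 and 5995.5 UMIs per cell, against 7554, 8465 and 6817 in the other mesenchyme, and every list of 3 values below keeps that order of lungs. Between 7 and 13 cell barcodes were shared by any pair of libraries, none of them between members.

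Myofibroblasts of the developing lung are contractile stromal cells that express smooth muscle actin and lay down elastin where alveolar septa will form. They are known to depend on platelet-derived growth factor signalling through Pdgfra and to lie within reach of epithelial Sonic hedgehog, whose ligand Hhip binds and restrains. Endothelin signalling through Ednrb, Wnt antagonists such as Wif1 and the growth factor Fgf18 have each been linked to this stroma or to alveolar formation.

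Levels are given in CPM, a gene's UMIs scaled to the same total in every cell and averaged over the cells of a class in a lung. Of the genes that chose the cells, Tgfbi, a secreted matrix adaptor protein induced by TGF-beta, had 2715, 2856 and 3106 CPM in the Hhip-Ednrb cells, against 40.9, 69.8 and 65.5 CPM in the other mesenchyme. Ednrb, a receptor for endothelins, had 1173, 1143 and 1161 CPM in the Hhip-Ednrb cells, against 24.8, 40.0 and 34.4 CPM in the other mesenchyme. Igf1, a secreted growth factor, had 1046, 1117 and 1184 CPM in the Hhip-Ednrb cells, against 76.5, 81.9 and 85.5 CPM in the other mesenchyme. These 3 genes had a UMI in 97.2 to 100% of the members of each lung and made up most of the marker signal. Hhip, the hedgehog-binding antagonist, had 698, 782 and 532 CPM in the Hhip-Ednrb cells, against 69.5, 84.9 and 58.2 CPM in the other mesenchyme, and was detected in 89.1 to 95.5% of the members. Fgf18, a fibroblast growth factor, had 204, 193 and 205 CPM in the Hhip-Ednrb cells, against 7.99, 4.87 and 8.86 CPM in the other mesenchyme, and Agt, the precursor of the angiotensins, had 269, 223 and 239 CPM in the Hhip-Ednrb cells, against 4.70, 9.24 and 7.87 CPM in the other mesenchyme. Wif1, a secreted Wnt inhibitor, had 149, 133 and 205 CPM in the Hhip-Ednrb cells, against 13.8, 24.4 and 10.2 CPM in the other mesenchyme. Fgf18, Agt and Wif1 were each seen in a smaller share of members, 56.3 to 63.7%, 57.0 to 61.1% and 42.2 to 49.2%. The level of each of the 7 genes was higher in the members of every lung than in the other mesenchyme of any lung. The choice of cells favours this order, without fixing it for each single gene, and the order therefore has no test.

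The matrix fibroblast genes ran the other way by the same choice. Tcf21, a transcription factor of lung fibroblasts, had 24.7, 35.6 and 57.3 CPM in the Hhip-Ednrb cells, against 961, 1180.5 and 1086 CPM in the other mesenchyme. Adh1, an alcohol dehydrogenase that acts on retinol, was the least depleted, with 129, 122 and 145 CPM in the Hhip-Ednrb cells, against 829, 772 and 840.2 CPM in the other mesenchyme. Free transcripts can put a UMI in a cell that does not express a gene, and Ptprc-positive cells served as a gauge of this. There Tgfbi was seen in 75.5 to 77.4% of the cells, Eln in 49.0 to 64.3%, Acta2 in 18.6 to 27.1% and Hhip in 2.56 to 4.38%, at a median depth of 8493, 8686 and 7539 UMIs. Tgfbi is also made by macrophages, so its share there is not a background level alone.

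**Figure D1:**
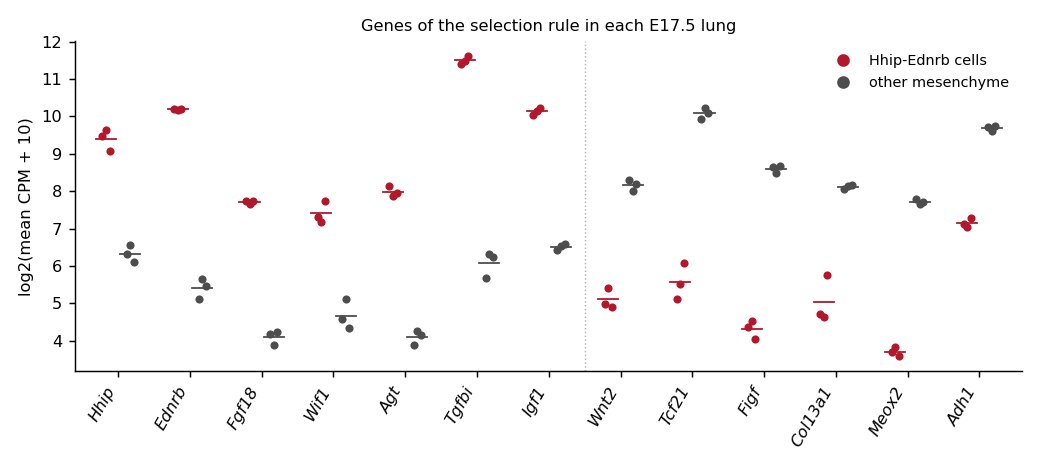
Level of the 13 genes of the rule, as mean CPM per class and lung on a log axis, in Hhip-Ednrb cells and other mesenchyme, with 1 point per lung. The 7 marker genes lie higher in the Hhip-Ednrb cells, down to 133 CPM for Wif1 in lung 2, and the 6 matrix genes lie lower. The rule favours both directions, and they carry no test.

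Among mesenchymal cells with fewer than 4 matrix genes, few lay just outside the rule's threshold, though in lung 2 the fewest, 7, had 2 markers. The side just inside was not as sparse. In lungs 2 and 3 the 22 cells with 4 markers outnumbered those with all 7, which were 18 and 20. Just inside the threshold were 19, 22 and 22 mesenchymal cells with exactly 4 of the 7 markers, and just outside were 12, 11 and 9 cells with 3. Cells with 4 markers had 926, 800.1 and 877 CPM of Ednrb, against 211, 151 and 437 CPM in cells with 3. Tgfbi was at 2009, 1696 and 2459 CPM inside, against 532, 487 and 1111 CPM outside. Ednrb and Tgfbi are among the 7 markers counted, so these gaps follow in part from the rule and have no test. The cells with 3 markers carried Wif1 at 272, 471 and 189 CPM, beside Agt at 9.36, 96.3 and 0 CPM. A further 31, 32 and 29 cells met both gene lists but had a UMI of Ptprc, Pecam1 or Epcam and were left out. Of the 394 members, 387 also passed the general mesenchyme rule, 1 was called a doublet by Scrublet, and none had over 10% mitochondrial UMIs.

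**Figure D2:**
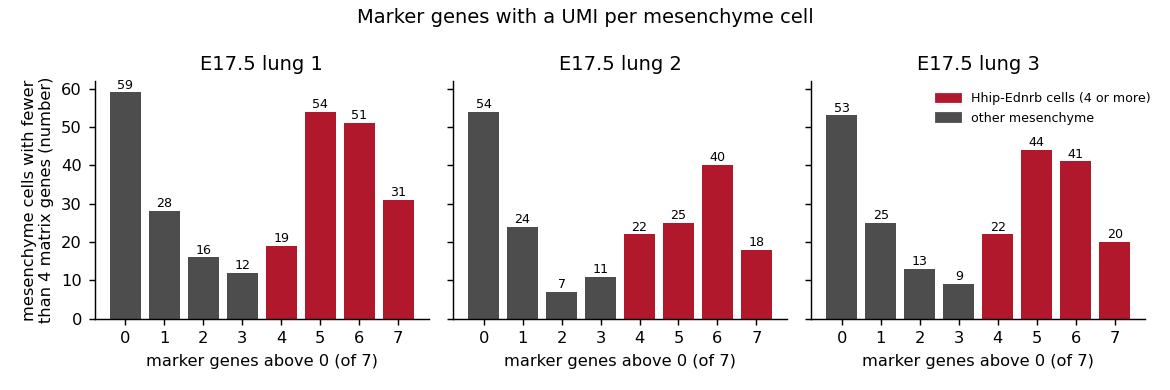
Number of mesenchymal cells of each lung (y axis) by how many of the 7 marker genes had a UMI (x axis), for cells with fewer than 4 matrix genes. Cells with 4 or more markers are members, 155, 105 and 127 of the 157, 109 and 128 members being shown because the others missed the mesenchyme rule; the counts are lowest at 3 markers in lungs 1 and 3, with 12 and 9 cells, and at 2 markers in lung 2, with 7.

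The members were not uniform in their contractile transcripts. Acta2, smooth muscle actin, had a UMI in 94.9 to 97.7% of members of each lung, against 75.7 to 79.2% of the other mesenchyme. Across the members of a lung the level of Acta2 followed that of Tagln, the actin-binding protein transgelin, with a Spearman rho of 0.59, 0.61 and 0.71. It did not follow that of Eln, which encodes elastin (rho 0.072, 0.031 and -0.017), and it leaned weakly against that of Pdgfra (rho -0.10, -0.16 and -0.28). Eln followed Tgfbi, with a rho of 0.48, 0.54 and 0.39. These values describe 157, 109 and 128 cells that share a library, they rest on sparse counts, and the cells are not replicates.

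A small set of members carried Actc1, the alpha cardiac actin that some smooth muscle cells also express; it was picked out after its values were seen and has no test. The 5, 3 and 5 members with at least 2 Actc1 UMIs averaged 2502, 2960.4 and 2454 CPM of Actc1, against 0, 0 and 1.53 CPM in the remaining members. They had 7548, 6693 and 8050 CPM of Acta2, against 2063, 2028 and 2601 CPM in the rest. Pdgfra was at 0, 0 and 41.9 CPM in them, against 407, 325 and 311 CPM, and Crh at 288, 0 and 89.5 CPM, against 1014, 818 and 784 CPM. These 13 cells were high in Acta2 and low in Pdgfra and Crh in every lung. Other smooth muscle transcripts were high in them too, with Cnn1, calponin, at 609, 871 and 1174 CPM, against 37.8, 42.9 and 47.5 CPM, and Des, desmin, at 1286, 1483 and 988 CPM, against 91.4, 148 and 151 CPM. Their median depth was 5031, 4102 and 4470 UMIs, and a level in them rests on as few as 0 or 1 UMIs for Pdgfra.

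The Hhip-Ednrb cells were next compared with the 1180 other mesenchymal cells of the same lungs (451, 346 and 383), of which 852 were matrix-gene cells, 131 pericyte-marker cells, 50 Agtr2-Penk-Dpep1 cells, 17 carried both gene lists and 130 had none of these profiles. In the Hhip-Ednrb cells 28 of 37 contractile genes and 13 of 21 Wnt genes were higher, and 6 of 6 Notch, 7 of 12 lipid and 8 of 16 S-phase genes were lower, where 22.4% of all tested genes were higher and 13.7% lower. limma, fitted on log2(mean CPM + 10) with the lung as a block, called 1790 of 8001 genes higher and 1098 lower at an adjusted p under 0.05, and each log2 difference is that of the Hhip-Ednrb cells minus the cells they are set against. Of these, 378 were at least 2-fold higher and 264 at least 2-fold lower. The balance depended on the scaling: with median-of-ratios scaling 1372 genes were higher and 1438 lower (48.8% of calls higher, against 62.0%), and edgeR's quasi-likelihood test on recovered UMIs gave 1354 and 1375 (49.6%). Genes of the rule and of the class panels were left out. Genes that vary together with the 13 rule genes had to differ to some degree once cells were chosen by those genes, so the tests say how repeatable a difference was over the lungs, not that the class exists.

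Crh, corticotropin-releasing hormone, had the largest difference of the tested genes, with 991, 796 and 757 CPM in the Hhip-Ednrb cells, against 15.1, 11.1 and 9.22 CPM in the other mesenchyme (log2 difference 5.30 ± 0.091 SE, limma adjusted p = 1.26e-17). Scara5, a scavenger receptor that takes up ferritin, had 243, 226 and 217 CPM in the Hhip-Ednrb cells, against 5.43, 4.85 and 2.86 CPM in the other mesenchyme (log2 difference 4.05 ± 0.12 SE, limma adjusted p = 2.08e-14). Crispld2, a secreted glycoprotein of lung mesenchyme, had 157, 219 and 252 CPM in the Hhip-Ednrb cells, against 4.77, 6.23 and 7.0 CPM in the other mesenchyme (log2 difference 3.75 ± 0.13 SE, limma adjusted p = 1.16e-13). For these 3 genes, picked for their large differences, the lung values of the classes did not overlap. The share of all tested genes without overlap was not counted. Htra1, a secreted serine protease, had 713, 687 and 886 CPM, against 47.6, 64.0 and 69.8 CPM (log2 difference 3.46). Map1b, a microtubule-associated protein, had 352, 389.6 and 382 CPM, against 23.1, 21.4 and 18.2 CPM (log2 difference 3.64). The other members of the leading 12 were Pdlim3 and Smpx, proteins of the muscle cytoskeleton, Net1, an exchange factor for RhoA, the adhesion molecules Nrxn3 and Cdh4, Egfem1 and the zinc finger gene Zfp536, with log2 differences of 3.30 to 3.83. Cdh4 (R-cadherin) had 109, 106 and 98.8 CPM, against 0.259, 0.429 and 2.03 CPM.

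Hsd11b1, the enzyme that regenerates active glucocorticoid, was the most reduced tested gene, with 5.14, 10.1 and 14.6 CPM in the Hhip-Ednrb cells, against 397, 457 and 463 CPM in the other mesenchyme (log2 difference -4.52 ± 0.11 SE, limma adjusted p = 2.11e-15). Limch1, an activator of non-muscle myosin, had 7.01, 3.81 and 16.1 CPM in the Hhip-Ednrb cells, against 387, 366 and 393 CPM in the other mesenchyme (log2 difference -4.42 ± 0.14 SE, limma adjusted p = 2.23e-14). Ccl11, the chemokine eotaxin, had 7.22, 6.90 and 2.22 CPM in the Hhip-Ednrb cells, against 266, 241 and 251 CPM in the other mesenchyme (log2 difference -4.11 ± 0.13 SE, limma adjusted p = 3.48e-14). Npnt, the integrin ligand nephronectin, had 10.4, 8.96 and 14.8 CPM, against 266, 255 and 293 CPM (log2 difference -3.73), and Vcam1, a leukocyte adhesion molecule, had 10.5, 21.5 and 4.78 CPM, against 200.1, 218 and 226 CPM (log2 difference -3.40). Gyg, the glycogen primer glycogenin, had 99.3, 111 and 140.0 CPM, against 1472, 1407 and 1466 CPM (log2 difference -3.54). Clec3b (tetranectin), G0s2 (an inhibitor of lipolysis) and 6030408B16Rik had log2 differences of -3.50, -3.48 and -3.82. The remaining 3 of the 12, Higd1b, Itm2a and Ebf1, are high in pericytes. Higd1b averaged 9.80 ± 1.01 CPM in the Hhip-Ednrb cells, against 15.0 ± 6.91 CPM in matrix-gene cells and 2143 ± 229 CPM in pericyte-marker cells (SD, n = 3 lungs), beside a difference of -3.86 from the other mesenchyme as a whole. Ebf1, a transcription factor, averaged 3.2 ± 3.28 CPM, against 13.6 ± 10.1 CPM in matrix-gene cells and 863 ± 35.7 CPM in pericyte-marker cells. Summed over its 7 genes, the pericyte panel stood at 205, 199 and 201 CPM in the Hhip-Ednrb cells, against 374, 546 and 385 CPM in the other mesenchyme.

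**Figure D3:**
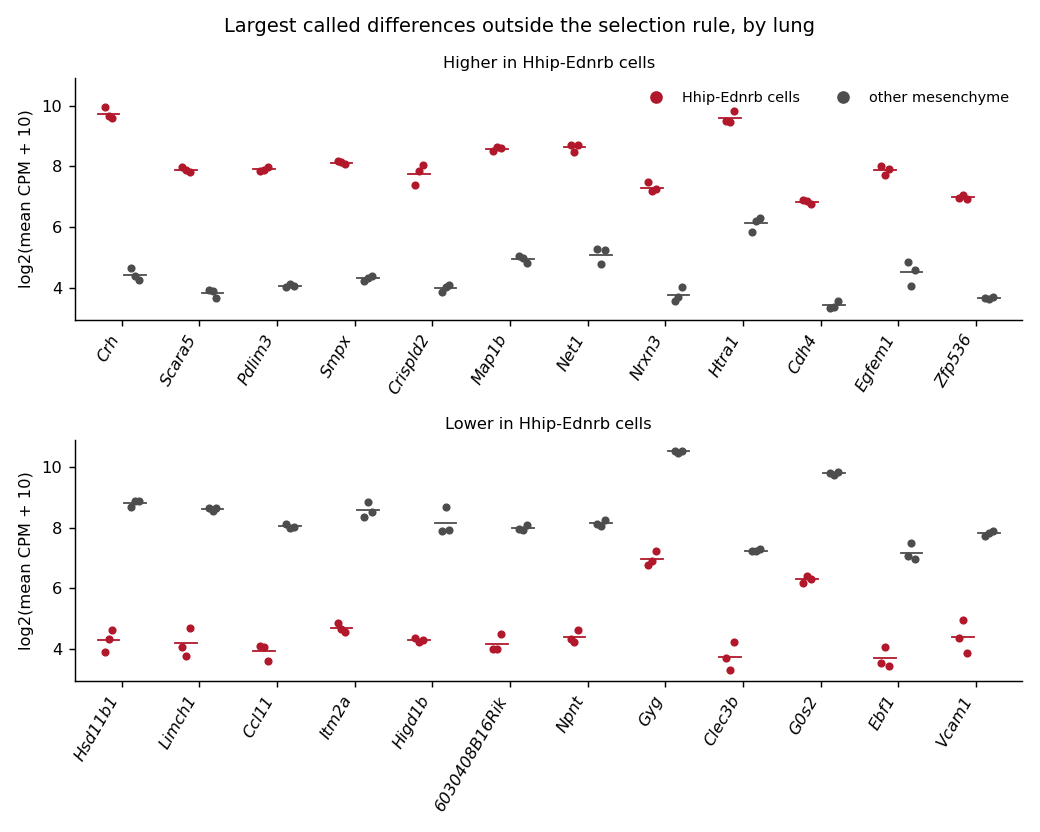
The 12 called genes with the largest differences in each direction between Hhip-Ednrb cells and other mesenchyme, on the scale of log2(mean CPM + 10). Points are the 3 lungs. The limma log2 difference was 5.30 for Crh and -4.52 for Hsd11b1. For each gene, the difference had the same direction in all 3 lungs.

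Contractile and cytoskeletal genes had the highest median difference of the 19 lists. Of its 37 tested genes, 28 were called higher and 5 lower, with a median log2 difference of 0.88, against 22.4% higher, 13.7% lower and a median of 0.08 over all genes tested. Acta2 had 2238, 2157 and 2814 CPM in the Hhip-Ednrb cells, against 637, 779 and 746 CPM in the other mesenchyme (log2 difference 1.72 ± 0.063 SE, limma adjusted p = 2.85e-13). Tagln had 1431, 1409 and 1667 CPM in the Hhip-Ednrb cells, against 168, 228 and 233 CPM in the other mesenchyme (log2 difference 2.79 ± 0.071 SE, limma adjusted p = 2.24e-15). Myh11, the smooth muscle myosin heavy chain, had 222, 258 and 217 CPM in the Hhip-Ednrb cells, against 14.7, 20.9 and 14 CPM in the other mesenchyme (log2 difference 3.2 ± 0.11 SE, limma adjusted p = 1.1e-13). The lowest member value of each of these 3 genes lay above the highest value in the other mesenchyme, a property not counted over all tested genes. Actg2, the enteric gamma actin, differed by 3.10. Acta2, Actg2 and Actc1 encode near-identical proteins, and the treatment of reads that match more than 1 of these genes is unknown here. Fhl2, a LIM-domain cofactor, differed by 3.10 on the log2 scale, Cnn1 by 2.42, Csrp2 by 2.50, Hspb1 by 2.18 and Myl9, the regulatory light chain of smooth muscle myosin, by 1.77. Des differed by 1.13 and Mylk, the myosin light chain kinase, by 1.04. The 13 members with Actc1 raised some of these values: without them, an alternative added after seeing the data, Cnn1 differed by 1.82 in place of 2.42, Actg2 by 2.70 in place of 3.10 and Des by 0.78 in place of 1.13, each still called, and 27 of 36 tested genes of the list were higher and 5 lower. Over all members, the 5 called lower were Itga8, Fhl1, Ppp1r14a, Itga1 and Cryab. Fhl1, another LIM-domain protein, had 639.6, 578 and 665 CPM, against 1824, 1748 and 1847 CPM (log2 difference -1.51), and Itga8, an integrin subunit that pairs with nephronectin, had 1.27, 2.74 and 2.90 CPM, against 58.6, 61.1 and 57.2 CPM (log2 difference -2.49). The count was 26 higher and 6 lower under median-of-ratios scaling and in edgeR.

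Cardiac muscle markers were checked beside this list, since cardiac cells share some of its genes. Their 5-gene sum was 96.2, 93.7 and 115.6 CPM in the Hhip-Ednrb cells, against 18.9, 57.0 and 23.7 CPM in the other mesenchyme, with Nppa and Myh6 at 0 in the members of every lung and Actc1 giving most of it. Leaving out the members with 2 or more Actc1 UMIs left 27 of 36 contractile genes higher, as above, and gave 1762 higher and 1097 lower genes in all. Epithelial genes summed to 172, 156 and 186 CPM, against 123, 112 and 148 CPM, endothelial genes to 247, 253 and 189.6 CPM, against 165, 247 and 180.1 CPM, and immune genes to 157, 212 and 179.8 CPM, against 213, 185 and 191 CPM. Mesothelial genes summed to 41.8, 46.8 and 56.6 CPM, against 155, 73.2 and 294 CPM, and erythroid genes to 16.1, 51.8 and 47.2 CPM, against 26.7, 91.5 and 45.1 CPM. Schwann cell and cartilage panels were at 2.65 CPM or less in the members of each lung, with Sox10 and Matn1 at 0 in all of them.

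Serum response factor drives many contractile genes through the CArG box, and promoter windows from RefSeq (GRCm38.p6; 250 bases before to 50 after each gene's start) were searched for it. As a pattern it reads the same on both strands, so both were covered. A gene was counted if any of its windows held the box. The box was present in 488 of 27025 genes with a window (1.81%) and in 106 of 6176 tested genes with a window (1.72%). It was present in 11 of 272 genes at least 2-fold higher in the Hhip-Ednrb cells (4.04%) and in 4 of 181 at least 2-fold lower (2.21%). Of the 31 tested contractile genes with a window, 6 held it (Cnn2, Myl9, Fhl1, Fhl2, Srf and Vcl), and of the 23 called higher, Myl9 and Fhl2. The windows below show the boxes of those 2 genes and of Actc1, with 25 bases on either side and the box in capitals; a match describes letters and is not evidence of binding. They start at -161 in Myl9 (chr2:156775278-156775337 on the plus strand), at -96 and -31 in 2 starts of Fhl2 (chr1:43196823-43196882 on the minus strand, and chr1:43163958-43164017 on the minus strand), and at -47 in Actc1 (chr2:114052888-114052947 on the minus strand), counted from the gene's start.
Myl9: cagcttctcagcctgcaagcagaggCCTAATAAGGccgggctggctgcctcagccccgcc
Fhl2, upstream start: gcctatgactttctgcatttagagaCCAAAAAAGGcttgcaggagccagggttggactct
Fhl2, downstream start: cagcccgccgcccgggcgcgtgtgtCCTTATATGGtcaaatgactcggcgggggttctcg
Actc1: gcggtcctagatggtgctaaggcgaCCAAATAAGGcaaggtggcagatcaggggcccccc

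Elastic fibre genes were divided. Of 19 tested, 10 were called higher and 3 lower, with a median log2 difference of 0.21; median-of-ratios scaling gave 8 and 6 and edgeR 9 and 3. Eln had 9109, 11296 and 10956 CPM in the Hhip-Ednrb cells, against 3679, 4282 and 4466 CPM in the other mesenchyme (log2 difference 1.33 ± 0.029 SE, limma adjusted p = 4.6e-16). Mfap2, a microfibril protein, had 2193, 2235 and 2328 CPM in the Hhip-Ednrb cells, against 785, 834 and 848 CPM in the other mesenchyme (log2 difference 1.44 ± 0.044 SE, limma adjusted p = 2.08e-14). Ltbp2, a latent TGF-beta binding protein of microfibrils, had 164, 156 and 178 CPM in the Hhip-Ednrb cells, against 26.1, 41.5 and 35.0 CPM in the other mesenchyme (log2 difference 2.01 ± 0.12 SE, limma adjusted p = 2.69e-10). Ltbp3 differed by 1.65, while the cross-linking enzyme Lox differed by 0.20. Mfap4, another microfibril-associated protein, had 1691, 1900.2 and 2189 CPM in the Hhip-Ednrb cells, against 9932, 9708 and 10929.8 CPM in the other mesenchyme (log2 difference -2.40 ± 0.039 SE, limma adjusted p = 1.07e-17). Fbln5, which guides elastin onto microfibrils, had 11.5, 14 and 35.0 CPM, against 124, 145 and 177 CPM (log2 difference -2.46), and Loxl1 had 47.3, 57.2 and 57.5 CPM, against 152, 168 and 156 CPM (log2 difference -1.40). Elastin was thus higher in the members of every lung, while 2 proteins that act in its assembly, Fbln5 and Loxl1, were lower. Per cell, the median Eln level was 4648, 8979 and 7537 CPM in the members, against 1551, 1592 and 2102.5 CPM in the other mesenchyme. The classes overlapped, since 10% of the members of each lung were at or below 463, 343 and 720 CPM, under the median of the other mesenchyme.

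Other matrix genes showed no common direction, with 11 of 35 collagen and matrix genes called higher, 13 lower and a median of -0.12. Mmp2, a gelatinase, had 632, 551 and 611 CPM in the Hhip-Ednrb cells, against 215, 218 and 256 CPM in the other mesenchyme (log2 difference 1.35 ± 0.071 SE, limma adjusted p = 4.43e-11). Spon2, a secreted matrix protein, had 186, 203 and 241 CPM, against 22.1, 42.1 and 18.8 CPM (log2 difference 2.59), and Col15a1, a basement membrane zone collagen, had 29.7, 46.0 and 37.7 CPM, against 2.32, 3.39 and 2.97 CPM (log2 difference 1.88). Fn1, fibronectin, had 38.5, 51.4 and 55.4 CPM in the Hhip-Ednrb cells, against 566, 566 and 626 CPM in the other mesenchyme (log2 difference -3.36 ± 0.089 SE, limma adjusted p = 3.79e-15). Ogn, osteoglycin, had 36.8, 41.0 and 39.0 CPM, against 246, 247 and 291 CPM (log2 difference -2.47). Spon1 was at no more than 3.2 CPM in the members of any lung. Basement membrane genes divided too, with 6 of 16 higher, 5 lower and a median of 0.11. The laminin subunits Lamc1, Lama2 and Lamb2 differed by 1.58, 1.08 and 1.07, and Npnt, Col18a1 and Frem1 by -3.73, -1.70 and -1.33.

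In the hedgehog pathway, whose antagonist Hhip chose the cells, 1 of 7 tested genes was called higher and 1 lower, with a median of 0.19. Ptch1, the receptor and a target of the pathway, had 132, 117 and 109 CPM in the Hhip-Ednrb cells, against 91.9, 85.5 and 108 CPM in the other mesenchyme (log2 difference 0.30 ± 0.11 SE, limma adjusted p = 0.0371), and the call was lost in several alternative settings, among them without lung 1 or lung 2 (0.21 and 0.25) and under median-of-ratios scaling (0.20). Gli1, another target, had 28.5, 36.5 and 27.2 CPM, against 22.7, 25.8 and 28.5 CPM, a difference of 0.19 ± 0.15 (SE) on the log2 scale that was not called. Gas1, a hedgehog co-receptor, had 28.8, 35.5 and 47.8 CPM, against 93.5, 90.9 and 92.7 CPM (log2 difference -1.13). The lung values of Gli1 overlapped between the classes, and the lowest Ptch1 value of the members, 109 CPM in lung 3, lay just above the highest of the other mesenchyme, 108 CPM in the same lung.

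Wnt genes were more often higher: 13 of 21 were called higher and 2 lower, with a median of 0.73. This depended on the class compared. Against the Agtr2-Penk-Dpep1 cells 6 of 24 were higher and 4 lower, where 8.15% and 4.67% of all tested genes were. The median there was 0.01, and -0.25 in edgeR. Notum, a secreted enzyme that inactivates Wnt ligands, had 98.8, 95.1 and 109 CPM in the Hhip-Ednrb cells, against 9.66, 10.4 and 11 CPM in the other mesenchyme (log2 difference 2.45 ± 0.13 SE, limma adjusted p = 5.89e-11). Nkd1, an intracellular feedback inhibitor of the pathway, had 316, 296 and 366 CPM in the Hhip-Ednrb cells, against 50.2, 50.0 and 57.1 CPM in the other mesenchyme (log2 difference 2.42 ± 0.090 SE, limma adjusted p = 3.22e-13). Lgr6, a receptor for R-spondins, had 87.1, 73.4 and 99.2 CPM, against 1.40, 1.38 and 2.86 CPM (log2 difference 3.02). The ligands Wnt5a and Wnt11 differed by 2.17 and 1.18, and the nuclear effectors Tcf7 and Lef1 by 1.48 and 1.35. Axin2, the usual transcriptional readout of canonical Wnt signalling, did not stand apart, with 29.9, 32.7 and 34.4 CPM in the Hhip-Ednrb cells, against 34.1, 26.7 and 32.2 CPM in the other mesenchyme (log2 difference 0.05 ± 0.14 SE, limma adjusted p = 0.825, not called). The members had nearly no Rspo1, a Wnt-enhancing ligand, at 0, 1.55 and 0 CPM, against 42.0, 24.7 and 31.6 CPM. Sfrp1, a secreted Wnt-binding protein, was the other gene called lower, with a log2 difference of -1.19.

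FGF genes had no common direction, with 6 of 15 higher, 6 lower and a median of 0.18. Spry1, a feedback inhibitor of FGF signalling, had 332, 132 and 118 CPM in the Hhip-Ednrb cells, against 47.3, 34.8 and 32.8 CPM in the other mesenchyme (log2 difference 1.94 ± 0.15 SE, limma adjusted p = 8.02e-09). Lung 1 stood above the other two for Spry1, and Spry2 had 158, 123 and 90.3 CPM, against 40.2, 40.5 and 37.4 CPM (log2 difference 1.41). Fgfr2, the receptor best known from lung epithelium, had 32.5, 41.2 and 49.9 CPM, against 16, 17.3 and 23.9 CPM (log2 difference 0.81). Fgfr3 and Fgfr4, receptors with roles in alveolar formation, were at most 4.05 and 4.40 CPM in any lung's members, and differed by -2.95 and -2.37. Fgf10, the ligand that drives branching, had 2.66, 1.61 and 1.97 CPM, against 34.3, 43.5 and 43.4 CPM (log2 difference -2.06).

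All 4 tested PDGF genes were called, 2 in each direction, with a median of 0.37. Pdgfra, the receptor on which alveolar myofibroblasts depend, had 394, 316 and 301 CPM in the Hhip-Ednrb cells, against 64.9, 57.7 and 63.0 CPM in the other mesenchyme (log2 difference 2.26 ± 0.093 SE, limma adjusted p = 1.33e-12). Pdgfrl, a related secreted protein, differed by 1.29. Pdgfrb, a receptor of pericytes, had 30.4, 52.4 and 45.7 CPM, against 64.3, 114 and 76.5 CPM (log2 difference -0.84), but was at 13.9 ± 0.884 CPM in matrix-gene cells and 473 ± 109 CPM in pericyte-marker cells (SD, n = 3 lungs). The members thus lay above the matrix-gene cells and below the pericyte-marker cells in Pdgfrb. The ligand Pdgfa differed by -0.55 ± 0.15 (SE), a call lost without lung 2 (-0.40), with the rules applied to cells thinned to 3000 UMIs (-0.37) and with at least 6 of 8 mesenchymal genes required (-0.40).

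TGF-beta and BMP genes were called higher in 17 of 35 cases and lower in 6, with a median of 0.38. Gdf10, a BMP-like ligand, had 134, 115 and 158 CPM in the Hhip-Ednrb cells, against 5.58, 9.33 and 10.0 CPM in the other mesenchyme (log2 difference 2.99 ± 0.14 SE, limma adjusted p = 6.55e-12). Nog, the BMP antagonist noggin, differed by 1.5. Tgfbr3, the co-receptor betaglycan, differed by 1.84, and the ligands Tgfb1 and Tgfb3 by 1.09 and 0.93. Bmp3 and Bmp5 had log2 differences of -1.75 and -0.90, and Id1, a target of BMP signalling, had 76.6, 83.4 and 97.5 CPM, against 175, 197 and 175 CPM (log2 difference -1.01). The members carried more Nog and less Id1 than the other mesenchyme of each lung. Other BMP pathway genes went both ways. Id2, Smad1, Smad5, Smad6 and Bmpr1a were also called higher, and Id3 and Id4 lower.

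All 6 Notch genes tested were called lower than in the other mesenchyme, with a median of -0.92. Heyl, a Notch target, had 1.92, 2.79 and 9.44 CPM, against 38.7, 57.9 and 38.8 CPM (log2 difference -1.92), and Nrarp, another target, had 0.767, 4.11 and 2.95 CPM, against 24.2, 35.3 and 17.0 CPM (log2 difference -1.47). These targets were at 10.0 ± 5.55 CPM and 4.61 ± 1.53 CPM in matrix-gene cells and at 177 ± 24.9 CPM and 141 ± 14.7 CPM in pericyte-marker cells (SD, n = 3 lungs), so the members lay near the matrix-gene cells. Notch2, a receptor, had 42.7, 38.0 and 33.7 CPM in the Hhip-Ednrb cells, against 82.3 ± 16.9 CPM in matrix-gene cells. Hes1 and Notch1 differed from the other mesenchyme by -0.82 and -0.71. Against the Agtr2-Penk-Dpep1 cells the list was not lower as a whole. There 1 of 6 Notch genes, Heyl, was lower and none higher, where 4.67% of all tested genes were lower. The median in that comparison was 0.06, and -0.26 in edgeR.

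Among IGF and imprinted growth genes, 5 of 19 were called higher and 9 lower, with a median of -0.38. H19, an imprinted noncoding RNA of fetal tissue, had 2031, 2215 and 2037 CPM in the Hhip-Ednrb cells, against 454, 434 and 405 CPM in the other mesenchyme (log2 difference 2.26 ± 0.052 SE, limma adjusted p = 6.85e-16). Grb10, an imprinted adaptor that restrains growth factor receptors, had 526, 599 and 505 CPM in the Hhip-Ednrb cells, against 228, 236 and 226 CPM in the other mesenchyme (log2 difference 1.20 ± 0.068 SE, limma adjusted p = 1.17e-10). Igf2, a fetal growth factor whose gene neighbours H19, differed by 0.53. Mest and Dlk1, both imprinted, differed by -2.33 and -1.83, and Igfbp7, a secreted IGF-binding protein, by -1.81. H19 and Mest thus lay on opposite sides of the other mesenchyme in every lung, and Meg3, an imprinted noncoding RNA, differed by 0.55. The direction for Meg3 depended on the class: it averaged 2287 ± 48.2 CPM in the Hhip-Ednrb cells, and 936 ± 69.5 CPM in matrix-gene, 5405 ± 602 CPM in Agtr2-Penk-Dpep1 and 3227 ± 555 CPM in pericyte-marker cells (SD, n = 3 lungs), and was called lower against the last pair, by log2 differences of -1.23 and -0.48.

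Vasoactive genes were called higher in 5 of 17 cases and lower in 8, with a median of -0.21. Rgs5, a brake on G protein signalling often used to mark pericytes, had 191, 219.9 and 192 CPM in the Hhip-Ednrb cells, against 25.3, 30.6 and 28.0 CPM in the other mesenchyme (log2 difference 2.47 ± 0.11 SE, limma adjusted p = 2.27e-12), and was at 124 ± 10.2 CPM in pericyte-marker cells (SD, n = 3 lungs). Ace, which makes angiotensin II from the product of Agt, differed by 1.85, and Ramp1, part of the receptor for CGRP, by 2.09. Enpep, an aminopeptidase that degrades angiotensin II, had 1.07, 4.20 and 9.0 CPM, against 124, 126 and 146 CPM (log2 difference -3.30), and Agtr1a, the receptor for angiotensin II, had 2.96, 0 and 0 CPM, against 21.4, 35.8 and 23.8 CPM and 195 ± 18.4 CPM in pericyte-marker cells. Ptger3, a prostaglandin E receptor, was called lower as well, at 4.51 CPM or less in the members of each lung. Ednra, the other endothelin receptor, had 115, 126 and 133 CPM in the Hhip-Ednrb cells, against 179, 177 and 189 CPM in the other mesenchyme (log2 difference -0.51 ± 0.087 SE, limma adjusted p = 0.000126). The members thus had more Ednrb, by rule, and less Ednra.

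Lipid handling genes were lower in 7 of 12 cases and higher in 1, with a median of -0.49. The other mesenchyme is mostly matrix-gene cells, and the number of calls differed by class. Against the pericyte-marker cells 1 of 12 was lower and 1 higher, with a median of 0.13. Of all genes tested there, 12.5% were lower and 14.7% higher. Against the Agtr2-Penk-Dpep1 cells 1 of 11 was lower and none higher, where 4.67% and 8.15% of all tested genes were. The median there was -0.49, as against the other mesenchyme, so only the calls were fewer, in a comparison with 50 cells. Plin2, which coats lipid droplets, had 53.2, 48.2 and 57.7 CPM in the Hhip-Ednrb cells, against 248, 212 and 237 CPM in the other mesenchyme (log2 difference -1.94 ± 0.095 SE, limma adjusted p = 1.46e-11). The lipoprotein receptor Vldlr and the triglyceride synthase Dgat2 differed by -1.86 and -1.43, while the lipase Pnpla2 was called higher, by 0.80, beside a lower level of G0s2, its inhibitor. Retinoid genes were called in both directions, 3 of 9 higher and 2 lower, with a median that changed sign between scalings (0.08, -0.01 and -0.07). Aldh1a1, an enzyme that makes retinoic acid, had 70.3, 57.4 and 64.0 CPM, against 7.24, 7.61 and 10.4 CPM (log2 difference 2.01), and Rdh10, which makes its substrate, differed by 1.46. The receptor gene Rarb and the retinol carrier Rbp4 differed by 1.10 and -0.84.

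Axon guidance genes were equally often higher and lower, 6 of 18 each, with a median of 0.14. Sema3c, a secreted semaphorin, and Plxna2, a plexin, had 122, 102 and 104 CPM and 97.9, 91.1 and 103 CPM in the members, and differed from the other mesenchyme by 2.93 and 2.35. The guidance receptor Robo2 differed by 1.28, and its ligands Slit2 and Slit3 by -1.35 and -1.49. Unc5c, a netrin receptor, was nearly absent from the members, at 2.32, 2.17 and 3.10 CPM, against 60.1, 57.1 and 50.5 CPM.

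Of 43 mesenchymal transcription factors tested, 18 were called higher and 11 lower, with a median of 0.12 that was close to 0 in edgeR. Foxf1, a forkhead factor of lung mesenchyme, had 602, 431 and 505 CPM in the Hhip-Ednrb cells, against 135, 126 and 111 CPM in the other mesenchyme (log2 difference 1.95 ± 0.085 SE, limma adjusted p = 2.83e-12). Tbx3, a T-box factor, had 222, 193 and 173 CPM in the Hhip-Ednrb cells, against 40.6, 45.1 and 39.5 CPM in the other mesenchyme (log2 difference 1.99 ± 0.11 SE, limma adjusted p = 4.99e-11). Tshz1, a zinc finger factor, had 149, 135 and 158 CPM, against 20.5, 19.9 and 25.6 CPM (log2 difference 2.30). Mef2c, Runx1 and Foxf2 differed by 1.31, 1.19 and 0.95. Maf had 27.4, 18.1 and 13.5 CPM, against 164, 163 and 177 CPM (log2 difference -2.61), and Snai2, known from epithelial-mesenchymal transition, had 21.0, 17.4 and 26.7 CPM, against 122, 104 and 96.9 CPM (log2 difference -1.90). Hoxa5, which patterns the lung mesenchyme, differed by -0.95 and Prrx1 by -1.0. Immediate early and stress genes gave 9 higher and 5 lower of 23, with a median of 0.15, but 7 and 10 under median-of-ratios scaling and 6 and 11 in edgeR, where the median was -0.07, so which direction held more of the list changed with the scaling. Within it, Atf3, a stress-induced factor, had 742, 794 and 905 CPM in the Hhip-Ednrb cells, against 250.1, 287 and 223 CPM in the other mesenchyme (log2 difference 1.65 ± 0.083 SE, limma adjusted p = 2.08e-11), and Klf2 and Ier3 differed by 0.95 and 0.58, whereas Dusp1, Egr2 and Jun differed by -0.56, -0.49 and -0.32; the Egr2 call was lost without lung 1 or lung 3 (-0.48 and -0.45).

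**Figure D4:**
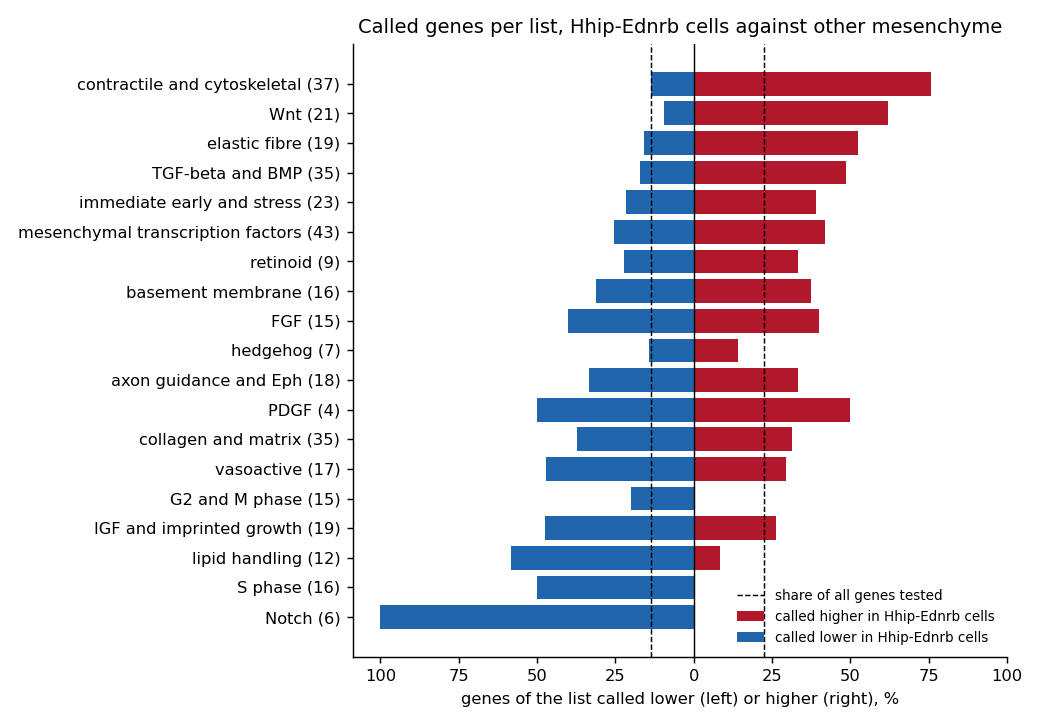
Percent of the tested genes of each of 19 lists called higher (right) or lower (left) in Hhip-Ednrb cells than in other mesenchyme; the dashed lines are the shares over all genes tested, 22.4% and 13.7%. Contractile genes reach furthest to the right, 28 of 37, and Notch genes to the left, 6 of 6.

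Against the other mesenchyme, cell cycle genes were lower or not called. Of 16 S-phase genes 8 were called lower and none higher, with a median of -0.39, among them Prim1, a primase subunit, and the replicative helicase subunits Mcm3 and Mcm5, with log2 differences of -0.63, -0.55 and -0.55. Of 15 genes of G2 and M phase 3 were lower (Ccnb2, Tacc3 and Birc5) and none higher, with a median of -0.42. The count lower was 8 under median-of-ratios scaling and 2 in edgeR. The direction depended on the class compared. Against the Agtr2-Penk-Dpep1 cells none of 12 S-phase genes was called, with a median of 0.41. Of 12 genes of G2 and M phase 2 were higher there (Cdk1 and Ube2c) and none lower, with a median of 0.69. Of all genes tested there, 8.15% were higher and 4.67% lower. Mki67, the proliferation marker, had 15.6, 20.7 and 14.3 CPM in the Hhip-Ednrb cells, against 12, 17 and 17.3 CPM in the other mesenchyme (log2 difference 0.09 ± 0.16 SE, limma adjusted p = 0.721, not called). Counted per cell after thinning each to 3000 UMIs, cells with at least 3 of 10 cell cycle genes made up 8.39, 4.63 and 3.94% of the members, against 5.83, 6.67 and 11% of the other mesenchyme. Without thinning the shares were 9.55, 9.17 and 5.47%, against 8.43, 10.4 and 13.8%. The mean difference after thinning was -2.20 ± 4.84 percentage points (SD, n = 3 lungs; exact sign-flip permutation test, two-sided p = 0.75, where 0.25 is the smallest possible), and lung 1 ran against the other two. Birc5 had 47.3, 39.5 and 24.6 CPM in the members, against 47.6, 47.4 and 77.2 CPM, and Ccnb2 had 48.5, 22.1 and 17.4 CPM, against 56.4, 46.7 and 71.2 CPM. Both were lower in the members of all 3 lungs, Birc5 by least in lung 1, and the gap of both was widest in lung 3. Without lung 3 the calls of Prim1, Mcm3, Mcm5, Ccnb2, Tacc3 and Birc5 were lost, at -0.46, -0.43, -0.56, -0.50, -0.40 and -0.11, and the difference in cycling cells was 0.260 percentage points; Mcm3 and Mcm5 were also lost without lung 1 (-0.53 and -0.27).

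The Agtr2-Penk-Dpep1 cells were the first of 2 classes set against the Hhip-Ednrb cells directly. They were mesenchymal cells outside the rule with at least 2 of those 3 genes, fewer than 4 matrix fibroblast genes and fewer than 4 of 7 pericyte genes. They numbered 14, 16 and 20, below the planned minimum of 20 in 2 of the lungs. A minimum of 10, chosen after the counts were seen, was therefore used, and the estimates are less precise. Without the limit on matrix genes the class would have held 29, 36 and 35 cells. limma called 649 of 7960 genes higher in the Hhip-Ednrb cells (8.15%) and 372 lower (4.67%), 504 and 273 of them by at least 2-fold. The median over all genes was 0.16 on the log2 scale and 0.05 in edgeR, which called 494 higher and 512 lower (49.1% of calls higher, against 63.6%), so differences here are best read against that shift. The contractile genes separated the classes: 27 of 37 were higher and 2 lower, with a median of 1.45. Acta2 averaged 2403 ± 358 CPM in the Hhip-Ednrb cells and 333 ± 202 CPM in the Agtr2-Penk-Dpep1 cells (log2 difference 2.96 ± 0.15 SE, limma adjusted p = 7.08e-18; SD, n = 3 lungs), and Tagln averaged 1502 ± 143 CPM and 118 ± 103 CPM (log2 difference 3.87 ± 0.22 SE, limma adjusted p = 1.07e-16). Crh averaged 848 ± 125 CPM in the Hhip-Ednrb cells and 5.22 ± 9.04 CPM in the Agtr2-Penk-Dpep1 cells (log2 difference 5.96 ± 0.29 SE, limma adjusted p = 1.65e-18). Pdlim3 and Egfem1 had no UMI in the 50 Agtr2-Penk-Dpep1 cells, and against a floor of 3 UMIs over that group they were at least 23.1-fold and 24.1-fold higher in the Hhip-Ednrb cells. Gm13889, Actg2 and Fam105a completed the leading 6, with log2 differences of 4.83, 4.35 and 4.04.

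Elastic fibre and growth factor genes went the other way against the Agtr2-Penk-Dpep1 cells. Among 20 genes of elastic fibres, 11 were lower and 2 higher, with a median of -0.58, and of 19 IGF and imprinted genes 1 was higher and 12 lower, with a median of -1.32. Eln averaged 10454 ± 1177 CPM in the Hhip-Ednrb cells and 15568 ± 1771 CPM in the Agtr2-Penk-Dpep1 cells (log2 difference -0.57 ± 0.058 SE, limma adjusted p = 5.05e-10). Fbln5 averaged 20.2 ± 12.9 CPM and 469 ± 102 CPM (log2 difference -4.05 ± 0.30 SE, limma adjusted p = 1.39e-13). The elastin level of the Hhip-Ednrb cells thus lay above that of the matrix-gene cells (3375 ± 448 CPM) and below that of the Agtr2-Penk-Dpep1 cells. Igfbp2 averaged 26.1 ± 19.5 CPM and 739.8 ± 372 CPM, and Igfbp7 83.3 ± 5.06 CPM and 1607 ± 119 CPM, with log2 differences of -4.46 and -4.11. Cxcl14, a chemokine, Ptn, the growth factor pleiotrophin, Ifitm1, an interferon-induced membrane protein, and Clec3b, tetranectin, differed by -5.15, -5.11, -4.98 and -4.74. Notum and Htra1 were high in both classes: Notum averaged 101 ± 7.45 CPM and 106 ± 43.1 CPM (log2 difference 0.01 ± 0.30 SE, not called), and Htra1 762 ± 108 CPM and 543 ± 184 CPM (log2 difference 0.53 ± 0.17 SE, limma adjusted p = 0.0348, called higher, though in 2 of 3 lungs). Ltbp2, Gdf10 and Grb10, called higher against the other mesenchyme, were not called here, at 166 ± 11.2 CPM, 136 ± 21.8 CPM and 543 ± 49.5 CPM in the Hhip-Ednrb cells and 156 ± 19.6 CPM, 86.3 ± 17.3 CPM and 469.6 ± 122 CPM in the Agtr2-Penk-Dpep1 cells. The rule gene Wif1 was high in both classes too, at 162 ± 37.7 CPM in the Hhip-Ednrb cells and 237 ± 109.7 CPM in the Agtr2-Penk-Dpep1 cells, given without a test.

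The pericyte-marker cells numbered 45, 50 and 36. They were mesenchymal cells outside the rule with at least 4 of 7 pericyte genes, fewer than 4 matrix fibroblast genes and fewer than 2 of Agtr2, Penk and Dpep1. limma called 1185 of 8042 genes higher in the Hhip-Ednrb cells (14.7%) and 1009 lower (12.5%), 552 and 445 of them by at least 2-fold. Of 38 contractile genes 19 were higher and 11 lower, with a median of 0.44. Acta2 averaged 2403 ± 358 CPM in the Hhip-Ednrb cells and 1455 ± 395 CPM in the pericyte-marker cells (log2 difference 0.74 ± 0.064 SE, limma adjusted p = 4.47e-09), whereas Des was lower, with a log2 difference of -0.89, and Itga1, Cryab and Smtn were among the 11 lower. Pdgfra averaged 337 ± 49.8 CPM and 5.85 ± 10.1 CPM (log2 difference 4.62 ± 0.26 SE, limma adjusted p = 2.4e-12), and Pdgfrb 42.8 ± 11.3 CPM and 473 ± 109 CPM (log2 difference -3.19 ± 0.14 SE, limma adjusted p = 5.12e-14). The PDGF receptors thus divided the classes in opposite directions. Fmo2, a flavin monooxygenase, averaged 413 ± 43.6 CPM and 1.51 ± 2.62 CPM (log2 difference 5.22 ± 0.20 SE, limma adjusted p = 4.68e-15), and Hspb1, a small heat shock protein of muscle, 1265 ± 198 CPM and 41.5 ± 10.2 CPM (log2 difference 4.64 ± 0.13 SE, limma adjusted p = 1.09e-17). Cox4i2 and Ndufa4l2, respiratory chain subunits tied to low oxygen, differed by -5.90 and -4.76, and Higd1b, Ebf1, Itm2a and Pdzd2 by -6.76, -6.07, -6.03 and -5.03. Crh, Htra1 and Smpx were higher by 6.11, 5.10 and 4.74.

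Wnt genes were higher in 12 of 21 cases and lower in 1 against the pericyte-marker cells, with a median of 0.90, and here Axin2 was called as well. It averaged 32.3 ± 2.31 CPM in the Hhip-Ednrb cells and 8.84 ± 4.99 CPM in the pericyte-marker cells (log2 difference 1.20 ± 0.27 SE, limma adjusted p = 0.00143). The hedgehog targets Ptch1 and Gli1 were both higher, at 119 ± 12 CPM and 33.3 ± 17.7 CPM for Ptch1 (log2 difference 1.67 ± 0.23 SE, limma adjusted p = 7.13e-06) and 30.8 ± 5.04 CPM and 7.64 ± 6.73 CPM for Gli1 (log2 difference 1.29 ± 0.28 SE, limma adjusted p = 0.0011). Of 18 genes of G2 and M phase 14 were lower and none higher, with a median of -0.97, and 13 were lower under median-of-ratios scaling and 9 in edgeR. In the same comparison 5 of 8 Notch genes were lower and none higher, with a median of -1.65. Lox and Tnc, the matrix protein tenascin C, were higher by 4.00 and 2.99, and Postn, periostin, was lower, at -3.83 on the log2 scale. The 2 comparisons and the one with the other mesenchyme share the Hhip-Ednrb cells, so their values are given side by side and no overlap between them is drawn.

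**Figure D5:**
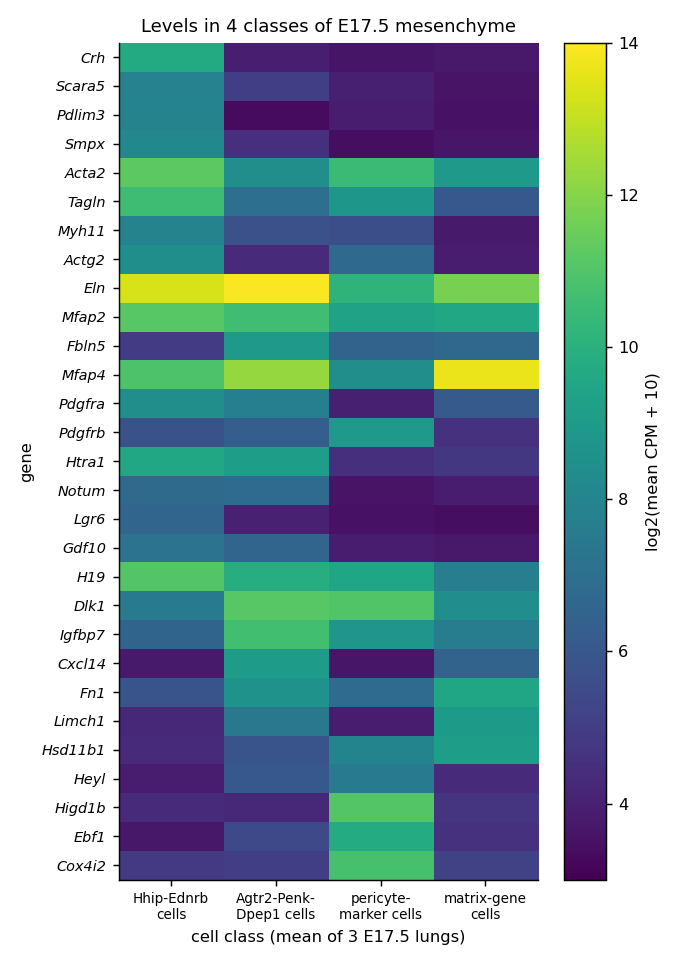
Heat map of log2(mean CPM + 10) of 29 genes (rows) in 4 classes (columns: Hhip-Ednrb, Agtr2-Penk-Dpep1, pericyte-marker and matrix-gene cells), as the mean of the 3 lungs. Acta2 and Tagln are highest in Hhip-Ednrb cells, Eln in Agtr2-Penk-Dpep1 cells, and Higd1b and Ebf1 in pericyte-marker cells.

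The same rule found 1091 of 3085 cells in the E16.5 sort (35.4%, 95% exact binomial interval 33.7 to 37.1%), at a median of 11041 UMIs. Age, sorting, genotype and depth differ together between this sample and the lungs and cannot be told apart, and with 1 sample there is no test. Acta2, whose reporter was used in the sort, was at 5415 CPM in the cells under the rule and 1705 CPM in the sort's other mesenchyme, and Eln at 2554 CPM in the cells under the rule and 1784 CPM in the sort's other mesenchyme. In the E17.5 members Eln stood at 9109, 11296 and 10956 CPM. Agt was at 51.3 CPM in the sort, beside 269, 223 and 239 CPM at E17.5, while Crh was at 752 CPM, beside 991, 796 and 757 CPM. Atf3 was at 15.8 CPM and Dusp1 at 103 CPM in the sort, beside 742, 794 and 905 CPM and 652, 662 and 711 CPM at E17.5. Within the sort, Crh, Scara5, Pdlim3 and Smpx were at 752, 185, 216 and 445 CPM in the cells under the rule, and at 20.7, 5.94, 11 and 23.8 CPM in its other mesenchyme. There, 109 of the 1091 cells had at least 2 Actc1 UMIs, and these had 104 CPM of Pdgfra, against 315 CPM in the remaining 982.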

How the data were processed

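The series measured single-cell RNA in 3 wild-type E17.5 mouse lungs and 1 sorted E16.5 sample. The tools named per the submitters' processing notes are Seurat 3.0.0 and Cell Ranger 1.3.1, with no role stated for either. The genome build and annotation were not given in the sources used here. As read from the values themselves, the deposited signal is UMI counts that the authors scaled per cell to the file's median UMI total, and 100% of them came out as whole UMIs (tolerance 0.01). From these, CPM were taken per cell and averaged per class and lung. Differences were fitted with limma 3.58.1 (R 4.3.3) on log2(CPM + 10) with a trended prior, the lung as a block and Benjamini-Hochberg adjustment, in genes averaging 10 CPM or more; a fold on this scale understates the change of low genes. The variance of each gene had 2 residual degrees of freedom. It was pooled with a prior taken from all tested genes, worth a median of 15.2, 35.3 and 19.6 degrees in the 3 comparisons. Small p-values therefore do not rest on a gene's own spread over 3 lungs alone. The 58 genes of the rule and class panels were not tested. The fits were tested on simulated data first. The edgeR 4.0.16 quasi-likelihood test on recovered UMI counts, an alternative, called 1354 genes higher and 1375 lower against the other mesenchyme. Both classes of a lung come from the same animal, which is why the lung was a block; deviations of the 2 classes from their means correlated by 0.102, 0.122 and 0.172 over lungs.

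Other mesenchyme was every other cell with Ptprc, Pecam1 and Epcam at 0 and at least 4 of 8 mesenchymal genes, more than of any other panel. Doublets were called with Scrublet in scanpy 1.11.5 (0.979 to 1.59% of cells), kept in the main result and left out in an alternative. The class of Agtr2-Penk-Dpep1 cells fell below the planned 20 cells in 2 lungs; a minimum of 10 was set after the counts were seen. The members and the 19 gene lists were chosen with earlier results of these data known. Named genes were those of the rule, the 12 called genes in each direction with the largest log2 difference and 1 direction in all 3 lungs (6 against each of the other 2 classes), up to 3 called genes per list and direction, and 10 defining genes such as Acta2, Eln and Pdgfra; further list members are given by log2 difference. Some genes that this choice names are not reported here. Tables were handled with pandas 2.3.3, numpy 2.4.6, scipy 1.17.1 and matplotlib 3.10.9 in Python 3.11.15. Intervals are exact binomial, at 95%.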

Additional observations from a re-analysis of the deposited data

Results flagged for a closer look

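Between the E17.5 lungs and the E16.5 sort, 7 named genes differed in direction: the Hhip-Ednrb cells lay on 1 side of the other mesenchyme in all 3 lungs and on the other side in the sort. The difference between the samples was not tested, the sort is 1 sample, and age, genotype, sorting and depth cannot be told apart; its other mesenchyme was also of another make-up, with 975 pericyte-marker cells among 1746. Fhl1 lay 1.15 higher on the log2 scale in the Hhip-Ednrb cells of the sort, against a difference of -1.51 in the lungs. Jun, Slit2, Rbp4 and Frem1 were higher in the sort by 0.93, 0.53, 0.46 and 0.10, and lower in the lungs, with differences of -0.32, -1.35, -0.84 and -1.33. Meg3 and Spry2 had differences of -0.55 and -0.21 in the sort, and of 0.55 and 1.41 in the lungs.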

How the results depend on the processing

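Of 2612 values of named genes recomputed under the alternatives, 2572 kept their direction and their side of the threshold, 33 lost their call, 7 that had no call changed sign (Axin2 and Mki67), and none that had been called reversed. The calls were lost in Ptch1, Birc5, Mcm3, Mcm5, Egr2, Tacc3, Pdgfa, Prim1 and Ccnb2, all against the other mesenchyme. Requiring a mean of 50 CPM, which tests fewer genes, gave 938 higher and 558 lower genes against the other mesenchyme, 596 and 566 against pericyte-marker cells, and 380 higher against Agtr2-Penk-Dpep1 cells. A pseudocount of 1 CPM left 259 higher and 207 lower against Agtr2-Penk-Dpep1 cells, and lifting the limit on matrix genes in that class, an alternative chosen after seeing the data, gave 1125 and 639. Applying the rules to cells thinned to 3000 UMIs gave 752 and 590 against pericyte-marker cells, a class that then held 12, 15 and 12 cells in place of 45, 50 and 36. A rule of 5 of 7 markers lowered the share of members to 4.40%. Without the lung as a replicate block the counts were 1693 and 982, 494 and 327, and 1140 and 968 against the 3 classes in the order of the report. Leaving out each lung in turn gave 1382 to 1559 higher and 858 to 908 lower genes against the other mesenchyme, 447 to 489 and 261 to 304 against Agtr2-Penk-Dpep1 cells, and 862 to 1063 and 743 to 867 against pericyte-marker cells. The difference in cycling cells was -4.57 to 0.260 percentage points when a lung was left out, reversing without lung 3, and -4.58 with the rules applied to thinned cells. Requiring 6 of 8 mesenchymal genes left too few Agtr2-Penk-Dpep1 cells and was not run there. With 3 lungs, and 14 to 20 cells of that class in each, small differences in low genes were not detectable.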
